A study of Rattus norvegicus with 24 samples.

Results

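The miRNAs described here are the arms of miR-142, miR-223 and miR-150, chosen by name: every row of the deposited rat miRNA counts whose name begins with one of these families. The name rule found 6 of the 728 miRNAs listed (rno-miR-142-5p, rno-miR-142-3p, rno-miR-223-3p, rno-miR-223-5p, rno-miR-150-5p and rno-miR-150-3p). Measured values played no part in the rule. Small RNA was sequenced from perilesional cortex and from ipsilateral thalamus of 12 adult male Sprague-Dawley rats, 3 months after surgery, which gave 24 libraries in 4 groups of 6. TBI rats received lateral fluid-percussion injury, a model of head trauma that drives fluid at pressure onto the intact dura through an opening in the skull. Sham rats shared the anesthesia, the craniectomy and the rest of the surgery but received no pulse. The injured rats were taken from those whose magnetic resonance images showed enhanced T2 signal around the lesion, so TBI here stands for injury with that sign and not for injury in general. Both regions were dissected from every rat, and each library came from 1 region of 1 rat.

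miRNAs are short RNAs cut as 2 arms from a hairpin precursor. An arm loaded into an Argonaute protein pairs with messenger RNAs, mainly through its seed, bases 2 to 8, and lowers their translation and stability. miR-142 is made throughout the blood lineage and, in the brain, by microglia and infiltrating leukocytes. miR-223 is a myeloid miRNA that restrains the production and activation of neutrophils and macrophages. miR-150 is abundant in mature lymphocytes, where it targets the transcription factor Myb. In a whole tissue such miRNAs can come from resident microglia, from cells that entered and from blood left in vessels. Which cells made each arm here, other brain cells among them, was not tested.

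The mature sequences below show what was counted and that the 4 arms carry 4 different seeds. They are RefSeq entries (rat assembly GRCr8), which held 4 of the 6 arms, and are written 5′ to 3′ with the seed in capitals.
miR-142-5p: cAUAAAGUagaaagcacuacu
miR-142-3p: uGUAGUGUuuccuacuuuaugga
miR-223-3p: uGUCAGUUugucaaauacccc
miR-223-5p: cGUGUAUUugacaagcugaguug
Among the 724 mature rat miRNAs of that RefSeq table, 0 others carried any of these 4 seeds. Mir142 lies on chromosome 10 at chr10:73055104-73055190, plus strand, and its hairpin of 87 bases holds the 5p arm of 21 bases and the 3p arm of 23 bases with 15 bases between them. Mir223 lies on the X chromosome at chrX:65151383-65151492, plus strand, in a hairpin of 110 bases. The coordinates are those of GRCr8, whereas the authors mapped their reads to RGSC3.4. miR-150 is given by name only.

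Levels are given in CPM, reads per 1000000 miRNA reads after trimmed mean of M-values (TMM) scaling over all 24 libraries. Libraries held 744564 to 4069284 miRNA reads in cortex and 523298 to 4139901 in thalamus. A count of 0 allowed up to 1.03 to 4.67 CPM in cortex libraries and up to 0.619 to 6.71 CPM in thalamus libraries (3 reads, counting error only). The thalamus libraries of sham rat 55 and TBI rat 56 were the shallowest, with 523298 and 538194 reads. Neuronal miRNAs were abundant in every group, as a check of the brain labels: the mean level of miR-124-3p was between 4828 and 8253 CPM and that of miR-128-3p between 106499 and 331368 CPM. In bulk tissue, a change in the number of cells of a type and a change in RNA per cell cannot be told apart.

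The arms differed widely in level. Over all 24 libraries rno-miR-150-5p lay between 662 and 1804 CPM, whereas rno-miR-142-5p lay between 13.4 and 114 CPM and rno-miR-142-3p between 6.71 and 62.2 CPM. miR-150-3p lay between 6.56 and 25.6 CPM and rno-miR-223-3p between 0 and 22.1 CPM. miR-223-5p had at most 4 reads in any library. Together the 6 arms made up 0.0878% ± 0.0181 (SD, n = 6) of miRNA reads in sham cortex and 0.140% ± 0.0415 in TBI cortex. The share was 0.112% ± 0.0274 in sham thalamus and 0.161% ± 0.0489 in TBI thalamus (SD, n = 6). These shares are of unscaled reads and follow mainly miR-150-5p, which had 9875 reads over the sham cortex libraries, where miR-142-5p, the next arm, had 425.

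**Figure D1:**
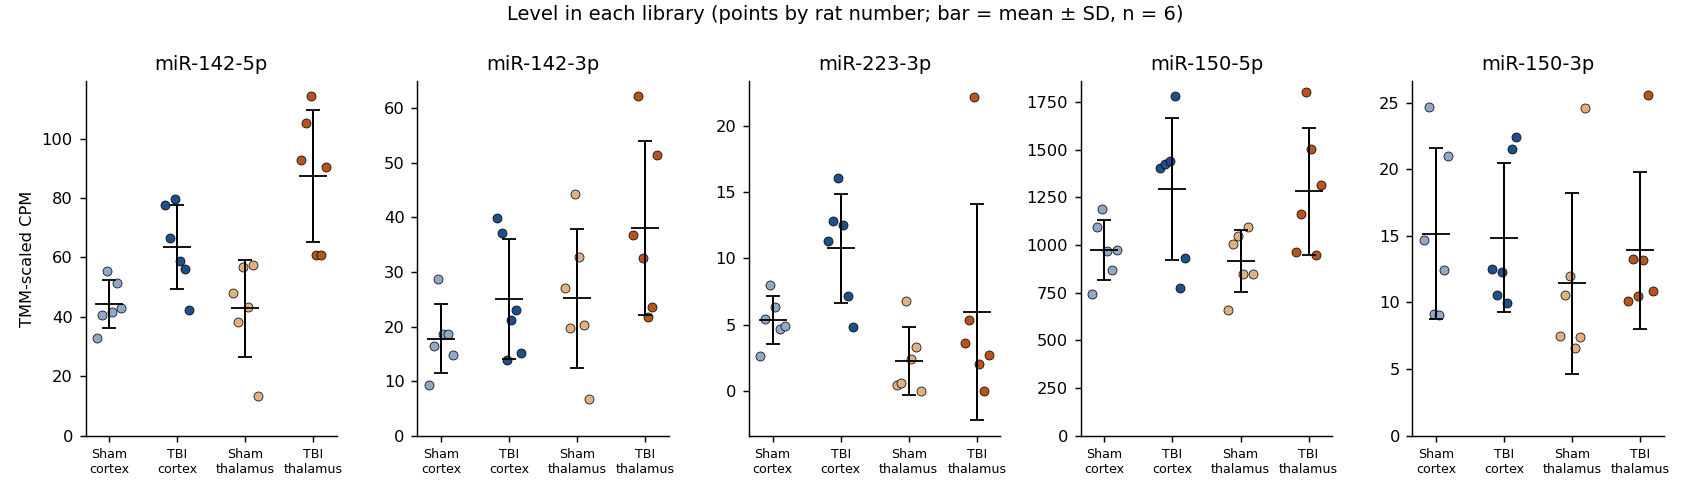
Level of each arm in TMM-scaled CPM (vertical axis) in the 4 groups of 6 libraries; a point is 1 library and bars show the mean ± SD. miR-142-5p reached 60.9 CPM or more in every TBI thalamus library and stayed at 57.4 CPM or less in every sham thalamus library, while a single TBI thalamus library held the highest miR-223-3p, at 22.1 CPM.

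The question of the injury comparison was whether these arms stood at another level in TBI rats than in sham rats. In cortex, miR-142-5p, miR-142-3p, miR-223-3p and miR-150-5p had higher means in TBI than in sham, by 1.37- to 2.07-fold in the fit, and miR-150-3p did not (0.961-fold). None of the 5 arms tested passed the edgeR quasi-likelihood test at an adjusted p of 0.05, against 5.66% of the 371 miRNAs tested (21 called). At an unadjusted p of 0.05, edgeR gave 3 of the 5 arms, against 21.8% of all miRNAs tested, and DESeq2, run on the same counts, called 2 arms after adjustment, against 11.1% of all. The 5 arms had a median log2 fold change of 0.55, beside 0.05 over all miRNAs tested.

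miR-223-3p had the largest cortical fold change of the arms. Its level in sham cortex ran from 2.67 over a median of 5.20 to 8.01 CPM (3 to 16 reads), and in TBI cortex from 4.80 over a median of 11.9 to 16.1 CPM (5 to 29 reads). In 4 of 6 TBI libraries it was above every sham library, and TBI rats 63 and 56 lay within the sham range. This gave a log2 fold change of 1.05 ± 0.30 (SE), with a 95% interval of 0.40 to 1.69 and an edgeR adjusted p of 0.0532. Among the other fits the adjusted p ranged from 0.0253, with library size alone, to 0.398, in the edgeR fit of all 24 libraries. It was 0.0492 with DESeq2 and 0.253 with scaling on 4 reference miRNAs. With 1 library left out it ranged from 0.0332, without TBI rat 63, to 0.149.

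In sham cortex miR-142-5p, an arm of the hairpin found throughout the blood lineage, ran from 32.8 over a median of 42.5 to 55.5 CPM and in TBI cortex from 42.4 over a median of 62.6 to 79.6 CPM. All TBI libraries but that of rat 63 exceeded the highest sham library. The log2 fold change was 0.58 ± 0.17 (SE; 95% interval 0.21 to 0.95), with an edgeR adjusted p of 0.0667. Among the other fits the adjusted p ranged from 0.0339, with library size alone, to 0.399, with scaling on 4 reference miRNAs. It was 0.0408 with DESeq2 and 0.306 in the edgeR fit of all 24 libraries. With 1 library left out it ranged from 0.0404, without TBI rat 63, to 0.214.

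The partner arm miR-142-3p was less clearly separated. It ran from 9.36 over a median of 17.5 to 28.6 CPM in sham cortex and from 13.8 over a median of 22.1 to 39.9 CPM in TBI cortex. Only TBI rats 22 and 24, at 39.9 and 37.1 CPM, exceeded all sham libraries. Its log2 fold change of 0.55 ± 0.29 (SE; 95% interval -0.06 to 1.16) had an edgeR adjusted p of 0.264.

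miR-150-5p, the most abundant of the arms, ran from 743 over a median of 972 to 1190 CPM in sham cortex and from 775 over a median of 1415 to 1780 CPM in TBI cortex. The TBI libraries fell apart into 4 between 1403 and 1780 CPM, all above the shams, and those of rats 56 and 63 at 775 and 931 CPM, inside the sham range. The log2 fold change was 0.46 ± 0.19 (SE; 95% interval 0.06 to 0.86), with an edgeR adjusted p of 0.159. Its partner miR-150-3p overlapped fully, with medians of 13.6 CPM in sham cortex and 12.4 CPM in TBI cortex, a log2 fold change of -0.06 ± 0.33 (SE) and an edgeR adjusted p of 0.945. miR-223-5p had 0 to 2 reads in every cortex library and was not tested.

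The scaling bears on the cortical values. In the cortical fit, which scaled the cortex libraries alone, TMM factors were 0.788 to 1.08 in sham and 0.979 to 1.17 in TBI. Over the 24 libraries, the scale of the printed CPM, they were 0.718 to 0.923 in sham cortex and 0.919 to 1.05 in TBI cortex. The neuronal miR-128-3p took 331368 ± 87161 CPM in sham cortex and 191513 ± 22415 CPM in TBI cortex (SD, n = 6). With library size alone the 371 miRNAs had a median log2 fold change of 0.25, and 36 of 39 calls were higher in TBI, whereas 11 of 21 were with TMM. On that scale miR-142-5p (log2 fold change 0.78) and miR-223-3p (1.29) passed, with edgeR adjusted p of 0.0339 and 0.0253. Relative to the shifted median they stood 0.53 and 1.03 higher.

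In thalamus, all 4 arms tested had a higher fitted level in TBI than in sham, by 1.27- to 2.01-fold, and miR-142-5p had the largest fold change. None passed the edgeR test at an adjusted p of 0.05, against 0.513% of the 390 miRNAs tested (2 called). At an unadjusted p of 0.05, edgeR gave 2 of the 4, against 5.64% of all, and DESeq2 called 1 after adjustment, against 0.769% of all. The 4 arms had a median log2 fold change of 0.53, beside -0.03 over all miRNAs tested.

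miR-142-5p ran from 13.4 over a median of 45.8 to 57.4 CPM in sham thalamus (6 to 275 reads) and from 60.9 over a median of 91.5 to 114 CPM in TBI thalamus (31 to 470 reads). Every TBI library was above every sham library, which held for 1 of the 4 arms tested and for 1.28% of the 390 miRNAs. The gap was narrow, between 57.4 CPM in sham rat 50 and 60.9 CPM in TBI rat 52 on the scale of all 24 libraries. The gap was narrower still with the thalamus libraries scaled alone, as in the fit. There the lowest TBI value was 65.4 CPM and the highest sham value 64.7 CPM. It closed with library size alone, where the lowest TBI value was 57.6 CPM and the highest sham value 69.2 CPM, and with scaling on 4 reference miRNAs. The log2 fold change was 1.01 ± 0.28 (SE; 95% interval 0.41 to 1.60), the fourth largest of the 390, with an edgeR adjusted p of 0.217. Among the other fits the adjusted p ranged from 0.0104, with DESeq2, to 0.775, with scaling on 4 reference miRNAs. It was 0.0376 in the edgeR fit of all 24 libraries and 0.505 with library size alone, and with 1 library left out it ranged from 0.113 to 0.486. Without sham rat 55, the shallowest library and the lowest value, the log2 fold change was 0.93 with an edgeR adjusted p of 0.113, and without TBI rat 45, the highest value, it was 0.98 with 0.326.

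miR-142-3p ran from 6.71 over a median of 23.7 to 44.2 CPM in sham thalamus and from 21.8 over a median of 34.7 to 62.2 CPM in TBI thalamus. The groups overlapped, with TBI rats 63 and 24 above all shams. The fitted log2 fold change was 0.58 ± 0.35 (SE; 95% interval -0.17 to 1.32), and the edgeR adjusted p was 0.774.

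miR-150-5p ran from 662 over a median of 928 to 1096 CPM in sham thalamus and from 946 over a median of 1239 to 1804 CPM in TBI thalamus. The TBI libraries of rats 56 and 22 lay inside the sham range and the other 4 above it. The log2 fold change of 0.48 ± 0.19 (SE; 95% interval 0.07 to 0.88) was close to the 0.46 of cortex, with an edgeR adjusted p of 0.578. miR-150-3p gave 0.35 ± 0.33 (SE) and an edgeR adjusted p of 0.815. Its highest value in each group, 24.6 CPM in sham rat 55 and 25.6 CPM in TBI rat 56, rested on 11 and 13 reads in the shallowest libraries, and without sham rat 55 the log2 fold change was 0.64, with an edgeR adjusted p of 0.461.

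miR-223-3p was too sparse in thalamus to pass the filter on low counts. It had 0 to 33 reads in sham libraries, at 0 to 6.81 CPM with a median of 1.56, and 0 to 91 reads in TBI libraries, at 0 to 22.1 CPM with a median of 3.18. A count of 0 was found in sham rat 55 and in TBI rat 56, where it allows up to 6.71 and 5.90 CPM. TBI rat 45 alone exceeded the sham range. With no filter the log2 fold change was 1.23 ± 0.68 (SE), with an edgeR adjusted p of 0.751, and in the fit of all 24 libraries it was 1.22 ± 0.58 (SE), with an edgeR adjusted p of 0.477. miR-223-5p had 0 to 4 reads in every thalamus library and was not tested.

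**Figure D2:**
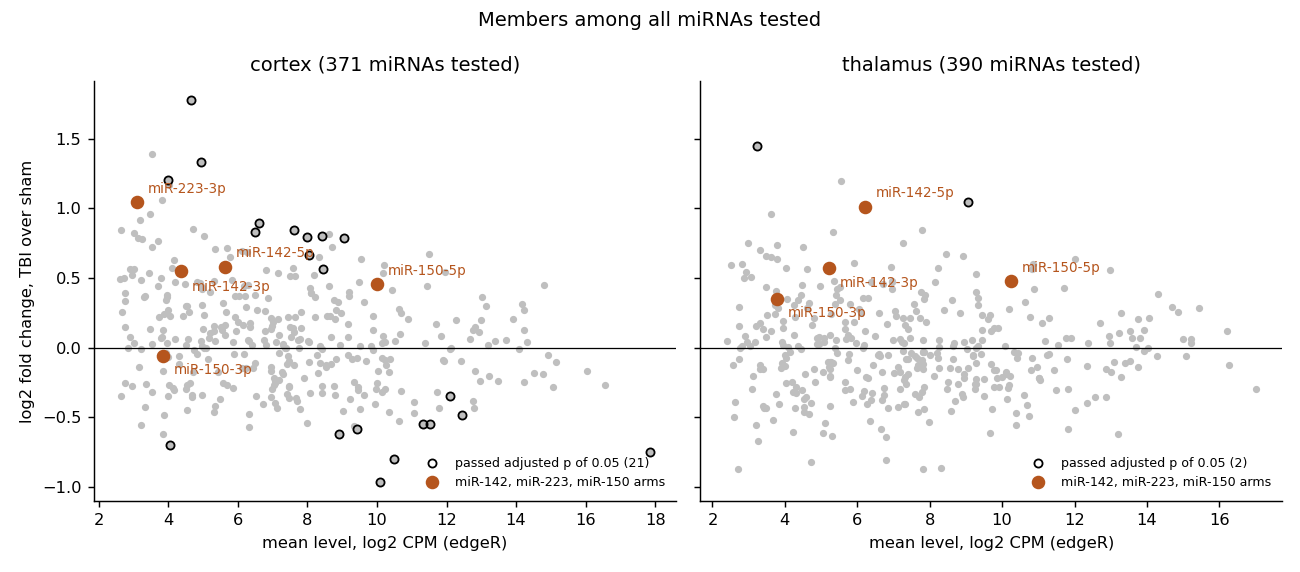
Log2 fold change of TBI over sham (vertical axis) against mean log2 CPM (horizontal axis) for each miRNA tested in cortex (371) and thalamus (390); grey points are miRNAs, circled points passed the edgeR test at an adjusted p of 0.05, and orange points are the named arms. All orange points but that of miR-150-3p in cortex lie above 0, and 0 of them is circled.

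TBI rat 45 had the highest miR-142-5p and miR-223-3p of its group in both regions, at 79.6 and 16.1 CPM in cortex and 114 and 22.1 CPM in thalamus. TBI rat 63 had the lowest miR-142-5p and miR-223-3p of TBI cortex, at 42.4 and 4.80 CPM, but 90.3 CPM of miR-142-5p in thalamus. Correlations within groups were computed for miR-142-5p, miR-142-3p, miR-223-3p and miR-150-5p, between arms in a region or between regions for an arm. Of these 32 correlations, 31 were positive and 0 passed after Benjamini-Hochberg adjustment of the exact permutation p. Unadjusted, 8 had an exact permutation p under 0.05. miR-150-3p was left out of this set. Over the 24 libraries with group means taken off, its Spearman's rho was negative with miR-142-3p (-0.43), miR-142-5p (-0.52), miR-150-5p (-0.35) and miR-223-3p (-0.54). No share of positive values over other pairs of miRNAs is given beside the count.

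Of the 32 correlations, the pair with the highest Spearman's rho was miR-142-5p with miR-223-3p in TBI thalamus. Pearson's r was 0.85 (exact permutation p = 0.00833, adjusted 0.133, n = 6) and Spearman's rho 0.94 (exact permutation p = 0.0167, adjusted 0.436). When the 2 libraries most distant from the median miR-142-5p level were left out, r was 0.93. With library size alone r was 0.94, with an adjusted exact permutation p of 0.0444. In the other groups r of this pair was 0.77 in sham cortex, 0.88 in TBI cortex and 0.79 in sham thalamus, with adjusted exact permutation p from 0.133 to 0.222. Without the 2 farthest libraries r became -0.71 in sham cortex, 0.48 in TBI cortex and 0.69 in sham thalamus. These values come from fewer libraries over a narrower range of miR-142-5p and were not tested.

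**Figure D3:**
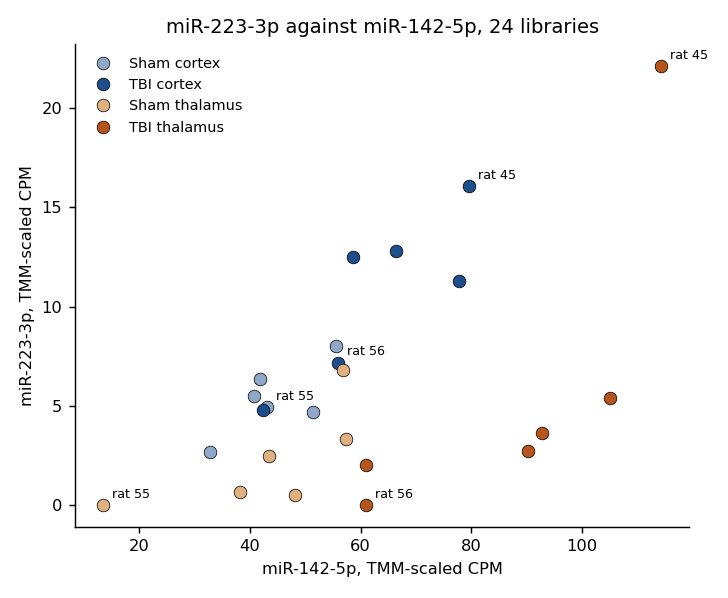
miR-223-3p against miR-142-5p, both in TMM-scaled CPM, 1 point for each of the 24 libraries, coloured by group. TBI rat 45 lies highest in cortex (79.6 and 16.1 CPM) and thalamus (114 and 22.1 CPM), and the shallow thalamus libraries of rats 55 and 56 lie at 0 CPM of miR-223-3p.

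The miRNAs most like each arm were listed by Spearman's rho of log2(CPM + 0.5) over the 24 libraries after group means were taken off, as a description, since all points share library depth and scaling. For miR-142-5p they were miR-450a-5p (rho 0.86), miR-30c-5p (0.82) and miR-124-5p (0.80), and miR-223-3p came next, as the fourth of 406 (0.79). For miR-223-3p they were miR-374-5p (0.88), miR-124-5p (0.86) and miR-425-3p (0.85). For miR-142-3p they were miR-219a-5p (0.87), miR-29b-3p (0.87) and miR-137-3p (0.87), and its own partner arm miR-142-5p stood at place 58 of 406, with a rho of 0.60. For miR-150-5p they were miR-145-5p (0.83), miR-212-3p (0.83) and miR-342-3p (0.80). For miR-150-3p they were miR-671 (0.75), miR-151-3p (0.75) and miR-217-5p (0.72), and its rho with its partner arm miR-150-5p was -0.35.

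The arms of miR-142 come from 1 hairpin, and their ratio within a library needs no scaling. Reads of miR-142-5p exceeded those of miR-142-3p in all 24 libraries. Some ratios rest on few reads and carry large counting error. The reads were 6 and 3 in the thalamus of sham rat 55, 31 and 12 in that of TBI rat 56, and 104 and 18 in the cortex of TBI rat 45. The ratio ran from 1.94 over a median of 2.61 to 3.50 in sham cortex and from 1.79 over a median of 2.61 to 5.78 in TBI cortex. It ran from 1.29 over a median of 1.86 to 2.82 in sham thalamus and from 1.69 over a median of 2.55 to 3.51 in TBI thalamus. The mean log2 ratio differed between TBI and sham by 0.06 in cortex (two-sided exact permutation p = 0.848, adjusted over both regions 0.848) and by 0.43 in thalamus (exact permutation p = 0.102, adjusted 0.203), and neither passed. In cortex the sign turned without TBI rat 45, whose ratio of 5.78 was the highest, to -0.16, and without sham rat 34 to -0.02.

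**Figure D4:**
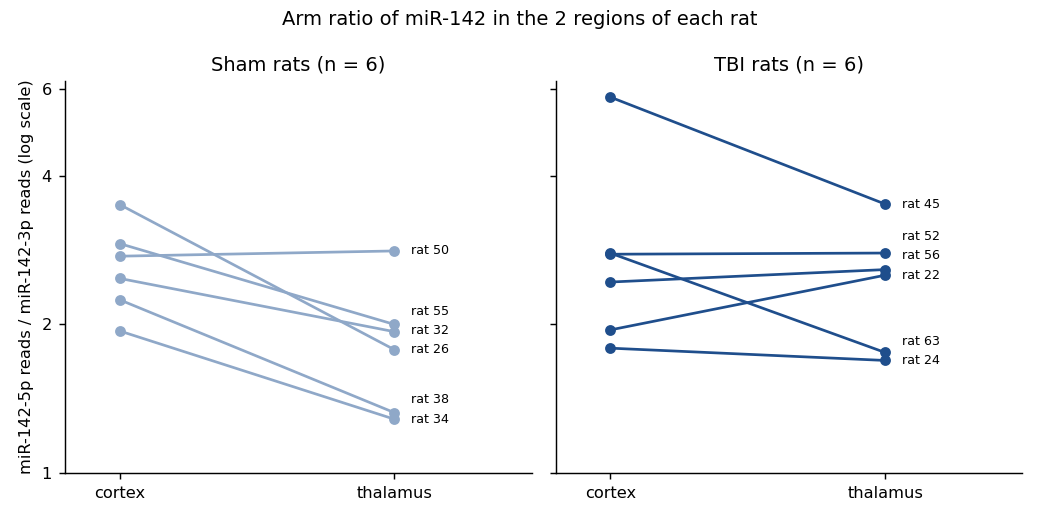
Ratio of miR-142-5p to miR-142-3p reads (vertical axis, log scale) in cortex and thalamus of each rat, with a line for each rat, sham rats at left and TBI rats at right. All 24 ratios are above 1, and the lowest, 1.29, is that of a sham thalamus.

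Levels in the 2 regions were then set beside each other. Ordered by mean, miR-142-5p was highest in TBI thalamus (87.4 ± 22.2 CPM), followed by TBI cortex (63.5 ± 14.1), sham cortex (44.2 ± 8.11) and sham thalamus (42.9 ± 16.3; SD, n = 6). miR-142-3p followed the order TBI thalamus (38.1 ± 15.9 CPM), sham thalamus (25.2 ± 12.8), TBI cortex (25.0 ± 11.0) and sham cortex (17.7 ± 6.34; SD, n = 6). miR-150-5p stood at 1293 ± 371 CPM in TBI cortex, 1282 ± 332 in TBI thalamus, 974 ± 158 in sham cortex and 918 ± 163 in sham thalamus (SD, n = 6). miR-223-3p stood at 10.8 ± 4.10 CPM in TBI cortex, 5.98 ± 8.11 in TBI thalamus, 5.35 ± 1.79 in sham cortex and 2.29 ± 2.56 in sham thalamus (SD, n = 6). For each arm the ranges of neighbours in this order overlapped.

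None of the 5 arms tested in the fit of all 24 libraries passed between thalamus and cortex. This held in sham rats, where 25.1% of 407 miRNAs passed (102 called), and in TBI rats, where 27.3% passed (111 called). At an unadjusted edgeR p of 0.05 there were 0 arms in sham rats (34.9% of all) and 0 in TBI rats (34.4% of all), and DESeq2 called 0 and 1 after adjustment (28.0% and 29.0% of all). In sham rats the log2 difference, thalamus over cortex, was 0.57 ± 0.35 for miR-142-3p, 0.01 ± 0.24 for miR-142-5p, -0.08 ± 0.20 for miR-150-5p and -0.87 ± 0.62 for miR-223-3p (SE). In TBI rats it was 0.61 ± 0.34 for miR-142-3p, 0.47 ± 0.24 for miR-142-5p, -0.01 ± 0.20 for miR-150-5p and -0.65 ± 0.53 for miR-223-3p (SE).

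The thalamic miR-223-3p level passed as lower than the cortical one in TBI rats in some fits. This arm passed the filter on low counts only with the cortex libraries included. In TBI thalamus it had 0 to 91 reads with a median of 7.5, and the 0 of rat 56 allows up to 5.90 CPM. The edgeR adjusted p of the difference was 0.407 as fitted. With the rat as a block, which pairs the regions of an animal, the log2 difference was -1.08 and the edgeR adjusted p 0.0426. Without the thalamus of TBI rat 45, the highest of its group at 22.1 CPM, it was -1.63, with an edgeR adjusted p of 0.00917. The miR-142-5p call by DESeq2 in TBI rats had a log2 difference of 0.54 and an adjusted p of 0.0411, and with library size alone miR-142-3p passed in sham rats at 1.03, with an edgeR adjusted p of 0.0321.

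Whether the effect of injury was larger in one region was tested as an interaction, the thalamic log2 fold change minus the cortical one. The value was 0.46 for miR-142-5p (95% interval -0.23 to 1.16), 0.04 for miR-142-3p (-0.97 to 1.05), 0.07 for miR-150-5p (-0.50 to 0.65), 0.42 for miR-150-3p (-0.54 to 1.38) and 0.22 for miR-223-3p (-1.42 to 1.85). With edgeR none of the 5 passed, with 0 at an unadjusted p of 0.05 and 0 by DESeq2. Of the 407 miRNAs 0% passed after adjustment with either tool, and 3.93% passed the edgeR test before it. The intervals allow differences of more than 1.5-fold in either direction for miR-142-3p and miR-223-3p.

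Other miRNAs of inflammation and of blood cells were read from the same fits. Of the inflammation-induced list of 5 (miR-146a-5p, miR-146b-5p, miR-155-5p and both arms of miR-21), 4 were tested in each region. In thalamus miR-155-5p and miR-146a-5p rose, the 2 calls of that region. miR-155-5p, a promoter of macrophage activation, went from 3.01 to 4.92 CPM in sham thalamus to 6.07 to 15.6 CPM in TBI thalamus (log2 fold change 1.45 ± 0.26 SE, edgeR adjusted p = 0.0207). miR-146a-5p, a brake on Toll-like receptor signalling, went from 260 to 367 CPM to 369 to 832 CPM (1.04 ± 0.20 SE, edgeR adjusted p = 0.0207). In cortex miR-146b-5p fell, with a log2 fold change of -0.48 ± 0.13 (SE) and an edgeR adjusted p of 0.0369 that became 0.104 with library size alone. miR-21-5p, the most abundant of the list in thalamus, gave a log2 fold change of -0.01 in cortex and of -0.10 in thalamus, and passed in neither region. The median log2 fold change of the 4 tested was 0.36 in cortex and 0.47 in thalamus, beside the same 0.05 and -0.03 over all miRNAs tested.

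Of 9 other leukocyte-expressed miRNAs (miR-342-3p, miR-342-5p, miR-363-3p, miR-181a-5p, miR-17-5p, miR-20a-5p, miR-18a-5p, miR-19b-3p and miR-92a-3p), 7 were tested in each region. All 7 had positive log2 fold changes in both regions under each of the 4 scalings tried, the lowest 0.0013 for miR-181a-5p in cortex with scaling on 4 reference miRNAs. The share of positive values over all miRNAs was not counted. The 7 are not independent, since miR-342-3p and miR-342-5p are arms of 1 hairpin and miR-17-5p, miR-20a-5p, miR-19b-3p and miR-92a-3p belong to the miR-17-92 cluster. With TMM their medians were 0.49 in cortex and 0.35 in thalamus, beside 0.05 and -0.03 over all miRNAs tested. In cortex, where 5.66% of all miRNAs tested passed, 2 of the 7 rose, miR-17-5p (0.89 ± 0.21 SE, edgeR adjusted p = 0.0361) and miR-20a-5p (0.85 ± 0.15 SE, edgeR adjusted p = 0.00634). In thalamus none of the 7 passed by edgeR, against 0.513% of all. At an unadjusted p of 0.05 edgeR gave 3 (5.64% of all), and DESeq2 called 0 (0.769% of all). The 2 miRNAs of the cortical pair are closely similar, so reads could be divided between them, and they are also made outside leukocytes. The most abundant of the list, miR-181a-5p, gave log2 fold changes of 0.04 in cortex and 0.06 in thalamus and passed in neither.

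**Figure D5:**
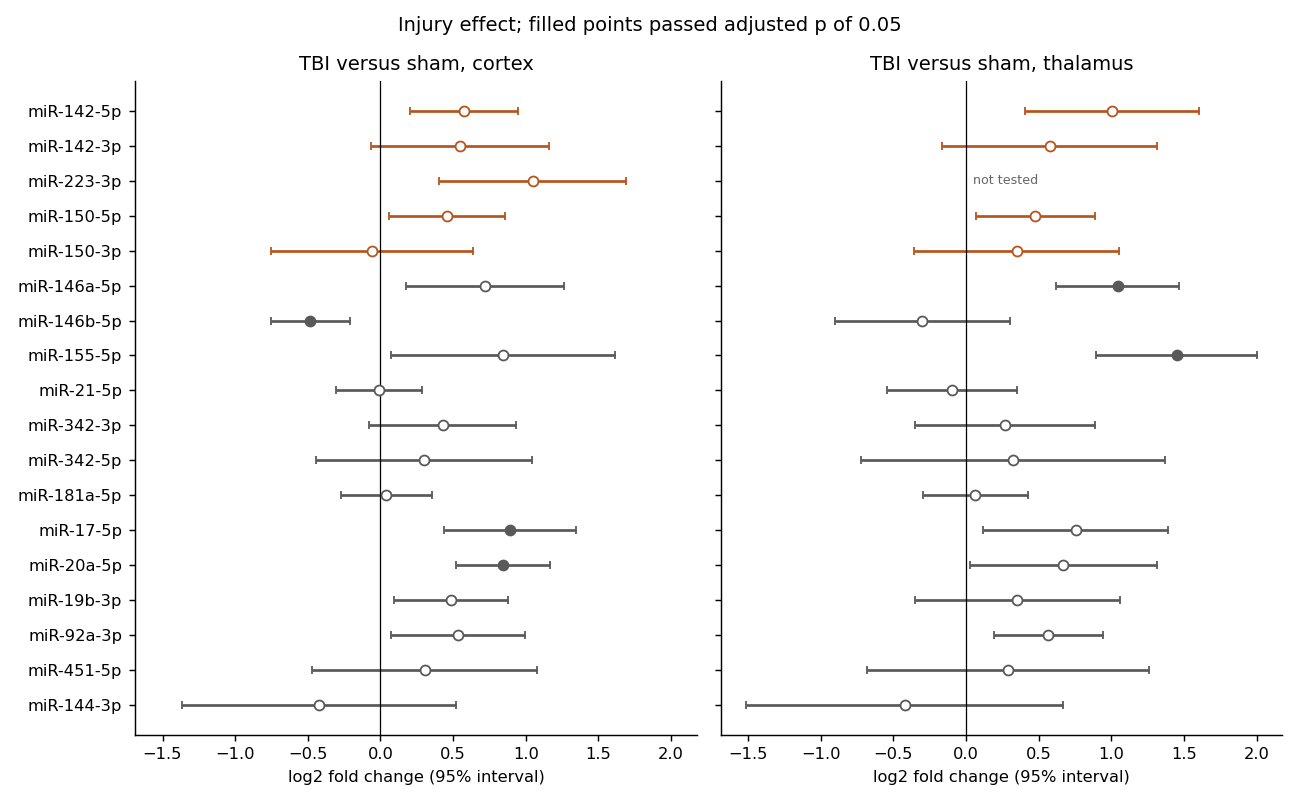
Log2 fold change of TBI over sham with its 95% interval (horizontal axis) for the named arms (orange) and for inflammation-induced, leukocyte-expressed and red cell miRNAs (grey) in cortex and thalamus. Filled points passed the edgeR test at an adjusted p of 0.05; the 9 orange points are open, and the grey miR-155-5p in thalamus is the farthest right, at 1.45.

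Blood left in the tissue could carry the same miRNAs, since the methods describe rinsing of the removed brain and name no perfusion, so red cell miRNAs were read beside them. Of 4 listed, 3 were in the tables and 2 were tested in each region. miR-451-5p, the main erythrocyte miRNA, ran from 20.6 to 46.9 CPM in sham cortex, 14.7 to 77.0 in TBI cortex, 13.0 to 28.9 in sham thalamus and 3.05 to 44.3 in TBI thalamus. Its log2 fold change was 0.30 ± 0.36 (SE) in cortex and 0.29 ± 0.45 (SE) in thalamus, and that of miR-144-3p was -0.43 and -0.42. None of the 2 passed by edgeR in either region, against 5.66% of all miRNAs tested in cortex and 0.513% in thalamus. At an unadjusted p of 0.05 edgeR gave 0 (21.8% and 5.64% of all), and DESeq2 called 0 after adjustment (11.1% and 0.769% of all). TBI rat 45, highest in miR-142-5p and miR-223-3p, had 46.7 CPM of miR-451-5p in cortex and 44.3 CPM in thalamus, the latter the highest of its group. Its miR-144-3p was 4.59 CPM in cortex and 4.62 CPM in thalamus, below the group medians of 5.90 and 5.02 CPM. The part of blood in the levels of the arms was not tested.

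Lists for other cell types were compared in the same way. In cortex, where 5.66% of all miRNAs tested passed, 1 of 4 neuronal miRNAs fell (miR-128-3p, log2 fold change -0.75 ± 0.16 SE, edgeR adjusted p = 0.0231). There 1 of 2 choroid plexus and ependymal miRNAs tested rose (miR-211-5p, 1.33 ± 0.34 SE, edgeR adjusted p = 0.0369). miR-204-5p, the more abundant of that list, stood at 1153 CPM in TBI cortex and 1223 CPM in sham cortex by the means of the cortical fit, with a log2 fold change of -0.09 ± 0.24 (SE) and an edgeR adjusted p of 0.901. Of 2 endothelial and 3 oligodendrocyte miRNAs none passed by edgeR in either region, against 5.66% of all in cortex and 0.513% in thalamus. For these lists edgeR gave 0 at an unadjusted p of 0.05 (21.8% and 5.64% of all), and DESeq2 called 0 (11.1% and 0.769% of all). The most abundant of each list, miR-126a-3p and miR-219a-2-3p, gave log2 fold changes of 0.05 and 0.17 in cortex and of 0.21 and 0.01 in thalamus. In thalamus none of the 4 neuronal and 2 choroid plexus miRNAs tested passed by edgeR, against 0.513% of all. At an unadjusted p of 0.05 edgeR gave 1 and 0 of them (5.64% of all), and DESeq2 called 0 and 0 (0.769% of all). The 4 neuronal miRNAs all had negative log2 fold changes there, from -0.61 for miR-138-5p (edgeR adjusted p = 0.262) to -0.12 for miR-9a-5p, with a median of -0.33 beside -0.03 over all. In cortex the 4 went both ways, with miR-128-3p at -0.75, miR-9a-5p at -0.27, miR-138-5p at -0.07 and miR-124-3p at 0.15. Their median there was -0.17 beside 0.05. The part of the neuronal share of the tissue in the levels of the arms was not tested. In thalamus miR-204-5p and miR-211-5p, with log2 fold changes of 0.43 ± 0.62 and 0.83 ± 0.66 (SE), were highest in TBI rat 45, at 13633 and 162 CPM, where the median of the group was 1751 and 25.1 CPM. The cortex of that rat had the highest miR-204-5p of TBI cortex, 2170 CPM. The part of choroid plexus tissue in its miR-142-5p and miR-223-3p was not tested. With scaling on 4 reference miRNAs, none of the listed miRNAs named here as rising or falling passed in its region.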

How the data were processed

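Small RNA libraries (inserts of miRNA length, NEBNEXT kit, NextSeq 500) came from cortex and thalamus of 6 TBI and 6 sham rats. Per the study's methods, the authors trimmed adapters, checked reads with FastQC, mapped them to RGSC3.4 and annotated them with miRBase. They deposited whole read counts per miRNA and library, which were used here as deposited. The CPM tables they also deposited were not used. How reads shared by similar miRNAs were divided is not given in the sources used here.

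The group and the number of each rat come from its sample title. The 6 arms, the lists and the tests were chosen with earlier results of these data known. Counts were filtered with filterByExpr and tested with the edgeR quasi-likelihood test (edgeR 4.0.16, R 4.3.3) after TMM scaling, in each region apart for TBI against sham and over all 24 libraries for regions and the interaction. Adjusted p is Benjamini-Hochberg over all miRNAs tested, with a threshold of 0.05. Printed CPM use TMM factors of all 24 libraries. A pseudocount of 0.5 CPM was added for correlations and of 0.5 reads to each arm for the tested arm ratio. Permutation tests were exact and two-sided (scipy 1.17.1). The fits were tested on simulated data. Alternatives were library size alone, DESeq2 1.42.0 and its size factors, scaling on 4 reference miRNAs, other filters, tRNA features added, 1 fit of 24 libraries, the rat as a replicate block, and each library left out. The robust option of glmQLFit was added after the data were seen.

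Named miRNAs are the arms, listed miRNAs that passed in either region, the most abundant miRNA of each list and the 3 nearest miRNAs to each arm. Values of red cell and choroid plexus miRNAs, of miR-124-3p, miR-138-5p and miR-9a-5p, and of the other miRNA near a named one are given beside these. Regions of the same animal pair by rat number: the correlation of their deviations from group means had a median of 0.448 over 12 rats and was over 0.1 in 8. No pair of libraries of a group agreed within sampling noise (chi-square per degree of freedom at least 35.0). Reads had no molecular identifiers, so floors cover counting error only.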

Additional observations from a re-analysis of the deposited data

Results flagged for a closer look

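In 32 sets of 6 libraries examined, 3 had a highest library that stood farther from its nearest neighbour, as a share of the whole range, than Dixon's 95% limit allows, where chance gives about 1.6. In sham thalamus, miR-150-3p was 24.6 CPM in rat 55, with the next library at 12.0 CPM (gap 0.700 of the range). In TBI thalamus, miR-150-3p was 25.6 CPM in rat 56, with the next at 13.3 CPM (0.797). These are the shallowest thalamus libraries, with 523298 and 538194 miRNA reads, and the values rest on 11 and 13 reads of miR-150-3p. In TBI thalamus, miR-223-3p was 22.1 CPM in rat 45, from 91 reads, with the next at 5.37 CPM (0.758). The cortex of the same rat had the highest miR-223-3p of TBI cortex, 16.1 CPM. Its miR-451-5p was 44.3 CPM in thalamus, the highest of its group, and 46.7 CPM in cortex. Its miR-144-3p, also a red cell miRNA, was 4.62 CPM in thalamus and 4.59 CPM in cortex, below the group medians of 5.02 and 5.90 CPM. Of the choroid plexus list, its thalamus had the highest miR-204-5p of the group, 13633 CPM (next 1966 CPM), and the highest miR-211-5p, 162 CPM (next 35.4 CPM). The other listed miRNA, miR-449a-5p, had at most 6 reads in any TBI thalamus library and was not tested.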

How the results depend on the processing

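The log2 fold changes of TBI over sham were positive for miR-142-5p, miR-142-3p, miR-150-5p and cortical miR-223-3p under every alternative that gave them a value (with a mean of at least 50 counts, cortical miR-142-3p and miR-223-3p were not tested). With library size alone, cortex had 39 calls, 2 of them arms (miR-142-5p 0.78, miR-223-3p 1.29), and cortical miR-150-3p turned to 0.19. That scaling gave 168 calls between regions in sham rats, 146 higher in thalamus against 52 of 102 with TMM, with 1 arm among them (miR-142-3p). It turned miR-150-5p to 0.35 in sham rats and 0.17 in TBI rats, miR-150-3p to 0.037 in TBI rats, and the interaction to -0.25 (miR-142-3p), -0.18 (miR-150-5p) and -0.081 (miR-223-3p). It also let 1 correlation between arms pass. With scaling on 4 reference miRNAs, cortex had 1 call and thalamus 0, and the interaction turned to -0.11 (miR-142-3p) and -0.059 (miR-150-5p). DESeq2 gave 41 calls in cortex, 26 of them higher in TBI, with 2 arms (miR-142-5p 0.56, miR-223-3p 1.02), 1 arm in thalamus (miR-142-5p 1.03) and 1 between regions in TBI rats. The fit of 24 libraries gave 5 calls in each region, with 1 arm in thalamus (miR-142-5p 0.99). A mean of at least 50 counts left 1 call in thalamus. Between regions in TBI rats, miR-150-5p, near 0, was 0.052 with DESeq2 and with its size factors and 0.011 with the mean filter. The robust option, added after the data were seen, gave 22 and 2 calls. The causes were not tested.

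With the rat as a replicate block, 1 arm passed between regions in TBI rats (miR-223-3p, -1.08), miR-142-5p in sham rats was -0.036 and miR-150-5p in TBI rats 0.0021. The paired fit changed no other call of an arm. The block was not fitted for TBI against sham, where each rat gives 1 library.

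Leaving out 1 library gave 4 to 30 calls in cortex (4 without sham rat 38, 30 without sham rat 55) and 0 to 2 in thalamus (0 without sham rat 32, 34 or 26). Called arms ranged from 0 to 2 in cortex (2 without TBI rat 63) and from 0 to 1 between regions in TBI rats (1 without the thalamus of TBI rat 45). In cortex, miR-142-5p ranged from 0.44 to 0.66, miR-223-3p from 0.83 to 1.18, miR-150-3p from -0.24 to 0.20 and the arm ratio from -0.16 to 0.18. Between regions, miR-142-5p ranged from -0.036 to 0.19 and miR-150-5p from -0.12 to 0.080 in sham rats, and miR-150-3p from -0.32 to 0.036 and miR-150-5p from -0.14 to 0.22 in TBI rats. The interaction ranged from -0.18 to 0.25 (miR-142-3p), -0.071 to 0.22 (miR-150-5p) and -0.83 to 0.90 (miR-223-3p). The rats were separate animals, but 6 in a group and single-digit reads of miR-223-3p in the shallow libraries limit what could be detected.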

Other observations

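The ratio of miR-142-5p to miR-142-3p reads was also compared between the regions of each rat, a comparison chosen after the values were seen and therefore given with no test. The mean log2 ratio was 1.03 in thalamus and 1.38 in cortex, a difference of -0.35 ± 0.42 (SD over 12 rats), and it was lower in thalamus in 8 of 12 rats. Leaving out each rat gave differences from -0.41 to -0.29. In sham rats it was -0.53 (lower in 5 of 6) and in TBI rats -0.16 (lower in 3 of 6). A ratio within a library does not depend on the scaling but carries the counting error of its reads, which were few in some libraries.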
